A study of Triticum aestivum with 15 samples.

Results

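Early responsive to dehydration 15 (ERD15) is present in bread wheat as homoeologous copies on chromosomes 3A, 3B and 3D, and the 3 copies were followed here through all 15 flag leaf libraries. They were picked by their locus numbers in the merged transcript catalogue (XLOC_038738 on 3A, XLOC_045026 on 3B and XLOC_051979 on 3D) and are 3 of the 122017 loci of that catalogue. The catalogue pairs these loci with the reference genes TraesCS3A01G376800, TraesCS3B01G409300 and TraesCS3D01G369800, and the name ERD15 comes from the study's own annotation. The study lists the copies among its water-deprivation genes because of their dry–wet change in these same libraries, so that a dry–wet change here is not independent evidence of that choice.

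The cultivars compared, TAM111 and TAM112, are hard red winter wheats and were grown in pots. Flag leaves were taken 79 days after transplanting, at heading, and 100 days after it, in mid grain filling, with pots held near 50% (dry) or at 90% (wet) gravimetric water content, which gives 8 groups. Every library pooled flag leaves of 4 plants. The wet group of TAM111 at heading has 1 library and the other 7 groups have 2, and the later stage also carries 21 further days of the same treatment. By the study's methods each replicate had pots of its own and the sampling times served as the blocks of the design, so that stage and block cannot be told apart. P-values measure the spread between these pools of plants. The tissue label was not checked against leaf markers, because the names needed for that were not used here.

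ERD15 was first described in Arabidopsis as a transcript that accumulates quickly when leaves lose water. It encodes a small acidic protein with a short PAM2 motif, through which such proteins bind the C-terminal domain of poly(A)-binding proteins, and in Arabidopsis it dampens responses to abscisic acid (ABA), the hormone that closes stomata under drought. Bread wheat carries an A, a B and a D subgenome, so that most genes exist as a triad of near-identical copies, and a triad can shift its expression from one copy to another without a change in its total.

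The 3 copies have the same compact structure, which is described first because it bears on how reads can be assigned. In the part-wise coordinates of IWGSC RefSeq v1.0, the 3A copy lies on part 2 of chromosome 3A from 171429130 to 171429667, the 3B copy on part 2 of 3B from 196755121 to 196755655, and the 3D copy on part 2 of 3D from 6360606 to 6361140, all on the plus strand. The 3A transcript has exons of 265 and 191 bases. The 3D transcript and the longer 3B transcript have exons of 262 and 191 bases. An intron of 82 bases separates these exons in every copy, and the annotated length is 456 bases on 3A and 453 bases on 3B and 3D, each a multiple of the codon length and without annotated UTRs. The 3B locus has a second transcript of 387 bases, in which a further intron of 66 bases is taken out of the first exon. FPKM values were given per gene, so these 2 transcripts were not told apart. No catalogue locus overlaps a copy. The nearest neighbour, 641 bases from the 3D copy on the minus strand, was listed at 0 FPKM in all libraries.

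**Figure D1:**
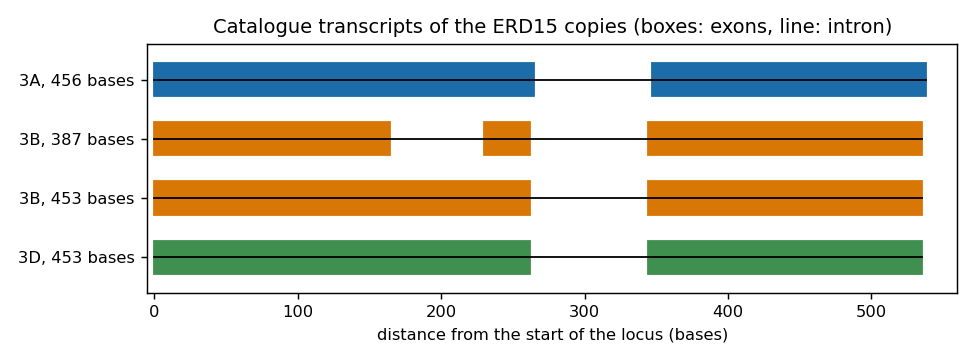
Catalogue transcripts of the ERD15 copies, with distance from the start of the locus in bases on the x axis, 1 row per transcript, boxes for exons and lines for introns. The 3A, 3D and longer 3B transcripts share the exon pattern with the intron of 82 bases, and the transcript of 387 bases on 3B has 1 intron more.

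Expression is given as FPKM, the fragments per kilobase of transcript and scaled to the mapped reads that the authors computed for each library by itself. It is scaled per length, and levels are compared between copies within the limits given below. The depth estimated from the deposited confidence bounds was between 5.89 and 8.14 M fragments per library. Summed over all entries, the implied fragments were fewer, between 2.10 and 2.92 M per library. The bounds imply between 8 and 60.2 fragments on the 3A copy, 5.57 and 86.2 on 3B, and 4 and 57.3 on 3D. The study gives several times more reads per library than either total, and these gaps were not resolved. These numbers are therefore used as a measure of the precision that Cufflinks assigned and not as counts of sequenced fragments. Of the 45 values, 9 came from an entry that Cufflinks assembled itself rather than from the reference gene (2 on 3A, 2 on 3B and 5 on 3D). Of these entries, 8 were longer than the reference gene, spanning 811 to 939 bases in place of 535 to 538. The median FPKM per fragment was 0.642 in the long entries and 0.792 in the others, and the source of this gap was not tested. Among entries with the span of the reference gene, this median was 0.784 on 3A, 0.859 on 3B and 0.755 on 3D. A difference in FPKM between copies therefore depends in part on the FPKM per fragment of their entries. Homoeologous reads that fit several copies could have been given to any of them, and this was not tested.

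A pair of TAM111 libraries stood apart in genes that tell the cultivars apart. Loci present in every TAM112 library and absent from every TAM111 library at grain filling (66 loci, at least 1 against at most 0.1 FPKM) were above 0.1 FPKM for 39.4% in replicate 1 of TAM111 at heading under dry, while the rest of the TAM111 heading libraries had 4.55% and 12.1% and those of TAM112 71.2% to 83.3%. For the 105 such loci chosen at heading, replicate 1 of TAM111 at grain filling under wet had 50.5%, where the rest of TAM111 had 20% to 21.0% and TAM112 70.5% to 78.1%. Dry–wet, stage and cultivar differences of TAM111 are given with and without them for the ERD15 copies. For the other named loci and the water-deprivation list, TAM111 differences and calls are given only with both libraries included. How far those differences and calls depend on these libraries was not tested. The part of these libraries in the ERD15 values was not tested either.

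Under the dry treatment at grain filling, the 3A copy was up-regulated in both cultivars and the 3B copy in TAM112, while the 3D copy had log2 fold changes of 1.698 and 2.42 that did not pass the test. At heading no copy was called. The dry–wet test was limma on log2(FPKM + 1) over 47205 loci, where a call needed 2-fold or more and an adjusted p below 0.05. Fold changes are on that scale.

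In TAM111 at grain filling, the 3A copy had 36.8 and 34.9 FPKM in the dry libraries and 6.36 and 9.97 FPKM in the wet libraries. The means were 35.9 ± 1.39 (SD, n = 2) and 8.16 ± 2.55 (SD, n = 2). This was a log2 fold change of 2.04 (SE 0.43, 95% interval 1.06 to 3.01, limma adjusted p = 0.042). The 3B copy had 31.2 and 27.02 FPKM under dry and 11.01 and 5.86 under wet, a log2 fold change of 1.73 (SE 0.49, adjusted p = 0.107). The 3D copy had 17.0 and 31.8 FPKM under dry and 5.57 and 7.54 under wet, a log2 fold change of 1.698 (SE 0.78, adjusted p = 0.336). For all 3 copies the dry libraries lay above the wet ones, as they did for 29.6% of all loci tested. The test called 1 of the 3 copies higher, against 1.71% of all loci. The 3A call was close to the threshold and was lost in 10 of the 15 fits that left out 1 library, among them those without any 1 of the 4 libraries compared (log2 fold change 1.75 to 2.32, adjusted p between 0.0841 and 0.217). With 1 library left out, the log2 fold change ran from 1.32 to 2.13 for 3B and from 1.27 to 2.13 for 3D, and 3B was called without replicate 1 or without replicate 2 of TAM112 at heading under wet (adjusted p = 0.0279 each). Without both TAM111 libraries that stand apart the log2 fold changes were 1.75 (3A), 2.13 (3B) and 1.51 (3D), with adjusted p = 0.271, 0.222 and 0.691.

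In TAM112 at grain filling the differences were larger. The 3A copy had 48.4 and 48.1 FPKM under dry and 4.78 and 12.7 under wet (48.2 ± 0.186 against 8.72 ± 5.57, SD, n = 2 each). Its log2 fold change was 2.47 (SE 0.43, 95% interval 1.49 to 3.45, adjusted p = 0.0131). The 3B copy had 42.7 and 60.3 FPKM under dry and 8.51 and 6.81 under wet (51.5 ± 12.4 against 7.66 ± 1.20, SD, n = 2 each), the highest level of any copy in any library being the 60.3. Its log2 fold change was 2.59 (SE 0.49, 95% interval 1.49 to 3.69, adjusted p = 0.0175). The 3D copy had 34.8 and 36.4 FPKM under dry and 2.31 and 13.02 under wet, a log2 fold change of 2.42 (SE 0.78, 95% interval 0.67 to 4.18, adjusted p = 0.108). Both dry values and the 13.02 came from long assembled entries, and the 2.31 from the reference gene entry. This change could therefore not be read on reference gene entries alone. The wet values of the 3D copy spanned 5.63-fold, with 4 implied fragments behind the lower of them. The 3D change was 1.38 without replicate 1 under wet and 3.47 without replicate 2. On implied fragments scaled to depth, an alternative added after the values were seen, it was 1.87 and was called (adjusted p = 0.0442). No dry library overlapped a wet one for any copy, as for 28.4% of all loci, and 2 of the 3 copies were called higher, against 4.04% of all loci. Without replicate 1 under dry the 3A call is lost at adjusted p = 0.0713, and without replicate 1 under wet at 0.0596, where its log2 fold change was 1.85. Without replicate 2 under wet it was 3.09. The 3B call is lost without any 1 of the 4 libraries compared (adjusted p between 0.0622 and 0.0908) and on reference gene entries alone (log2 fold change 2.34, adjusted p = 0.0609).

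**Figure D2:**
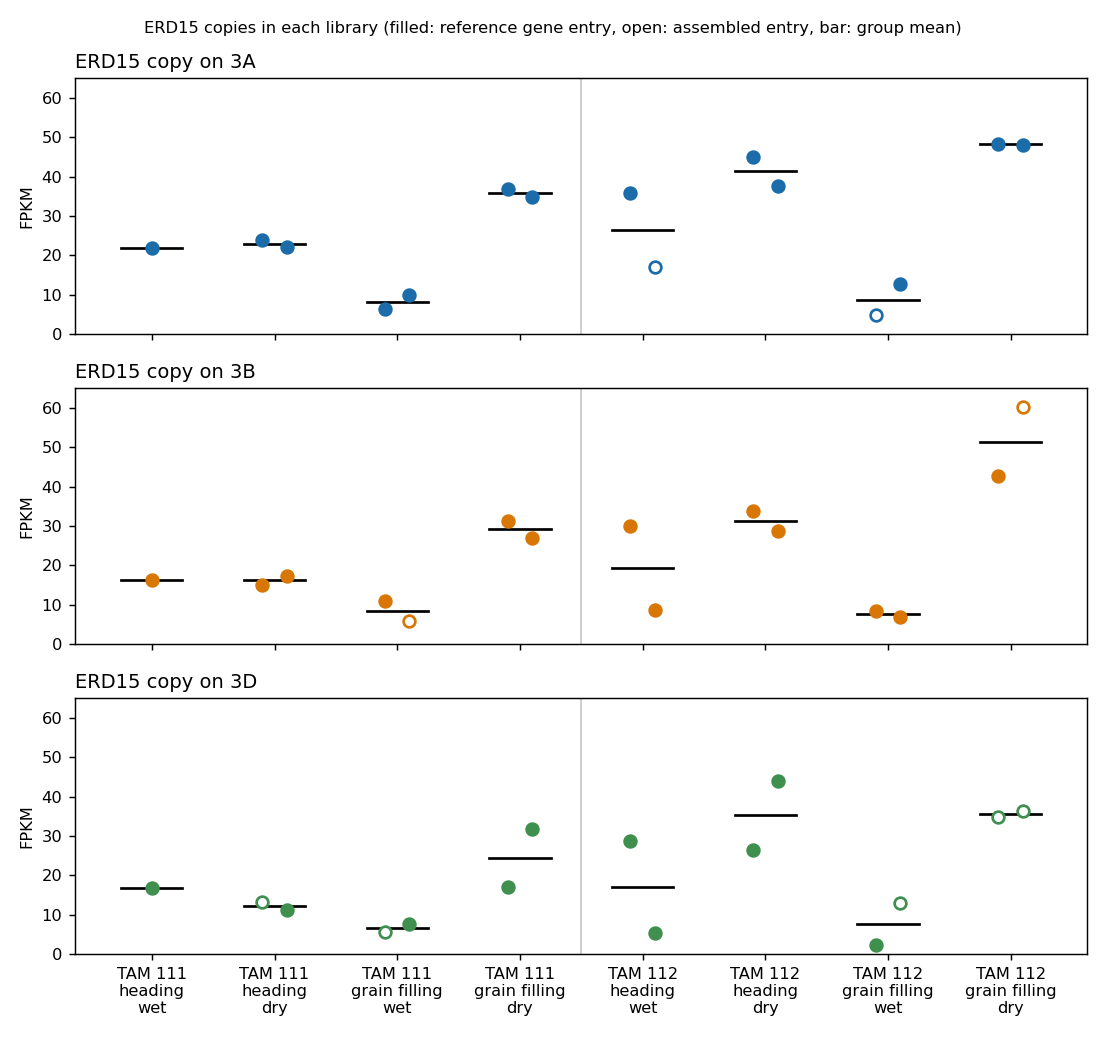
FPKM of the 3 ERD15 copies (1 panel each) in each library, grouped by cultivar, stage and treatment, with a bar at the group mean, filled points for values of the reference gene entry and open points for assembled entries. At grain filling all dry libraries lie above all wet ones in both cultivars, whereas at heading the wet libraries of TAM112 spread from 17.0 to 35.8 FPKM for 3A.

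At heading, where the plants had been under treatment for a shorter time, the copies differed little between treatments in TAM111. The 3A copy had 23.8 and 22.1 FPKM under dry and 21.96 in the single wet library, the 3B copy 15.1 and 17.4 against 16.2, and the 3D copy 13.2 and 11.2 against 16.8. The log2 fold changes were 0.06 (95% interval −1.14 to 1.26) on 3A, −0.0032 (−1.35 to 1.34) on 3B and −0.44 (−2.59 to 1.71) on 3D. With these intervals, changes of 2-fold in either direction could not be told from none. Without both TAM111 libraries that stand apart they were 0.0090, 0.09 and −0.55. None of the 3 copies was called by limma (0 at an unadjusted p below 0.05), and over all loci 0.0551% were called higher and 0.415% lower.

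In TAM112 at heading the wet replicates differed widely. The 3A copy had 45.1 and 37.6 FPKM under dry, with 35.8 and 17.0 under wet. The 3B copy had 33.9 and 28.7 under dry, with 30.0 and 8.60 under wet. The 3D copy had 26.5 and 43.9 under dry, with 28.7 and 5.22 under wet. For each copy replicate 1 under wet was near the dry libraries and replicate 2 was far below, by 2.11-fold on 3A, 3.48-fold on 3B and 5.505-fold on 3D. Dry and wet did not overlap on 3A, as for 22.8% of all loci, and overlapped on 3B and 3D. The log2 fold changes of 0.71, 0.90 and 1.37 (SE 0.43, 0.49 and 0.78) had adjusted p = 0.688, 0.637 and 0.658, and none was called (0 at an unadjusted p below 0.05), against 0.305% of all loci called higher. Between the same 2 libraries 15.2% of all loci differed by 2-fold or more, which is within the 14.8% to 17.3% of the other replicate pairs, and the median over the 83 tested loci of the water-deprivation list was −0.05 on the log2 scale. Of these 83 loci 17 were higher in replicate 2, against 20 to 42 in the other replicate pairs. Left without replicate 2, the log2 fold changes would be 0.20, 0.06 and 0.24, and without replicate 1 they would be 1.23, 1.74 and 2.50, so that these values rest on 1 library.

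From heading to grain filling, the group means of the copies differed in opposite directions under the treatments. Under wet the group means at grain filling were below those at heading for every copy and cultivar, with log2 differences of −1.35 (3A), −0.93 (3B) and −1.25 (3D) in TAM111 and −1.53, −1.002 and −0.997 in TAM112. The TAM112 values rest on single libraries: with 1 library left out they ran from −2.15 to −0.91 for 3A, from −1.85 to −0.16 for 3B and from −2.13 to 0.13 for 3D. In TAM111 that of 3B ran from −1.33 to −0.52. The lowest adjusted p was 0.328, for the 3A copy in TAM112, whose unadjusted p was 0.00604. Under dry the differences were 0.62, 0.80 and 0.89 in TAM111 and 0.22, 0.68 and 0.06 in TAM112, with adjusted p between 0.49 and 1. Without both TAM111 libraries that stand apart the TAM111 differences were −1.07, −1.33 and −1.06 under wet and 0.67, 0.71 and 0.998 under dry. No copy was called in these 4 comparisons (at an unadjusted p below 0.05, the 3A copy under wet in each cultivar), and of all loci 0.112% and 0.0974% were called lower under wet and 0.822% and 1.97% higher under dry, in TAM111 and TAM112 respectively.

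In TAM111 every grain filling library lay above every heading library under dry and below it under wet for 3 of 3 copies, as for 7.22% of all loci, and in TAM112 for 2 of 3 (3A and 3B), as for 3.08% of all loci. The stage interaction (dry–wet change at grain filling minus that at heading) tests whether the stage changes under dry and wet differ. It does not test whether they have opposite signs. The interaction was 1.98 (SE 0.69, 95% interval 0.43 to 3.52) for 3A, 1.73 (SE 0.77) for 3B and 2.14 (SE 1.24) for 3D in TAM111, with limma adjusted p = 0.506, 0.67 and 0.781. In TAM112 it was 1.76 (SE 0.61, 95% interval 0.38 to 3.14), 1.69 (SE 0.69) and 1.06 (SE 1.10), with adjusted p = 0.352, 0.433 and 0.784. Unadjusted limma p for 3A was 0.0176 in TAM111 and 0.018 in TAM112, and that for 3B in TAM112 was 0.0365. No copy passed after adjustment, and 0.199% and 0.195% of all loci did. Every estimate was positive, and the larger dry–wet change at grain filling was not shown to exceed that at heading. The TAM111 values rest on a single wet library at heading, and without both TAM111 libraries that stand apart they were 1.74, 2.04 and 2.06 (adjusted p = 0.806, 0.777 and 0.949). With 1 library left out the TAM112 values ran from 1.14 to 2.38, from 0.84 to 2.53 and from −0.073 to 2.18.

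**Figure D3:**
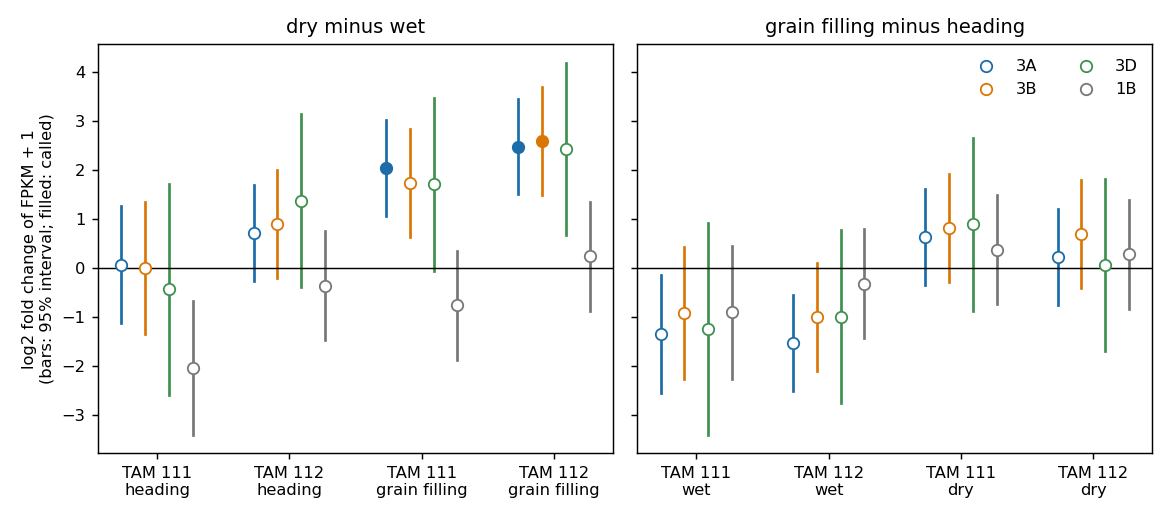
Log2 fold changes of FPKM + 1 with 95% intervals for the ERD15 copies on 3A, 3B and 3D and the ERD15 locus on 1B, dry minus wet on the left and grain filling minus heading on the right, with filled points for called changes. The 3 filled points are all at grain filling: 3A at 2.04 in TAM111, and 3A at 2.47 and 3B at 2.59 in TAM112.

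The cultivars were nearest to each other under wet and further apart under dry, within error. Under dry the TAM112 minus TAM111 differences were 0.82, 0.90 and 1.42 on the log2 scale at heading (3A, 3B, 3D) and 0.42, 0.78 and 0.59 at grain filling. TAM112 libraries lay above TAM111 libraries for all 3 copies at both stages under dry, as did 18.9% of all loci at heading and 18% at grain filling. None was called by limma (adjusted p between 0.596 and 0.838, 0 at an unadjusted p below 0.05), against 0.216% and 0.527% of all loci called higher. Under wet the differences ran from −0.39 to 0.16. Without both TAM111 libraries that stand apart the differences under dry at heading were 0.87, 0.81 and 1.53, and those under wet at grain filling were −0.30, 0.33 and −0.32. In that setting 2 of the 48 differences tested over all comparisons changed sign, both on 3B: dry–wet in TAM111 at heading (from −0.0032 to 0.09) and the cultivar difference at grain filling under wet (from −0.08 to 0.33). The dry–wet change was not shown to differ between the cultivars, with differences of 0.65, 0.90 and 1.81 at heading (adjusted p = 1 for each) and 0.43, 0.86 and 0.73 at grain filling (adjusted p between 0.899 and 0.943), while 0.155% and 0.239% of all loci passed. Without both TAM111 libraries that stand apart these differences were 0.70, 0.81 and 1.92 at heading and 0.72, 0.46 and 0.92 at grain filling.

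Ordered by mean level, each copy was lowest in the wet groups of grain filling and highest in TAM112 at grain filling under dry. The 3A copy went from 8.16 and 8.72 FPKM in the wet groups of grain filling, which overlapped, through 21.96 to 26.4 in TAM111 at heading and in TAM112 at heading under wet, to 35.9, 41.3 and 48.2. The top 3 groups did not overlap: TAM111 at grain filling under dry, TAM112 at heading under dry, and TAM112 at grain filling under dry. The 3B copy went from 7.66 to 51.5 FPKM and the 3D copy from 6.55 to 35.6. Neighbouring groups of the 3B copy overlapped except at the step from 8.44 to 16.2 FPKM and at the last step, from 31.3 to 51.5. Those of the 3D copy overlapped except at the step from 12.2 to 16.8.

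Within a library the 3A copy was usually the most abundant. It was highest in 10 of the 15 libraries and lowest in 0, whereas the 3D copy was highest in 2 and lowest in 10, and the 3B copy highest in 3 and lowest in 5. The 3A copy exceeded the 3D copy in 13 of 15 libraries, on average 1.48-fold (log2 ratio 0.57 ± 0.51, SD, exact sign-flip test over 32768 arrangements, two-sided, p = 0.000488, adjusted over 3 pairs 0.00146). It exceeded the 3B copy in 12 of 15 libraries, on average 1.20-fold (exact p = 0.0787, adjusted 0.118), and the 3B copy exceeded the 3D copy in 10 of 15 (1.23-fold, exact p = 0.12, adjusted 0.12). The 3D copy had 5 of the 8 long entries, whose FPKM per fragment was lower. Among entries with the span of the reference gene, the median FPKM per fragment was also lower on 3D (0.755) than on 3A (0.784) and 3B (0.859). With reference gene entries on both copies, 3A was above 3D in 7 of 8 libraries, 1.40-fold (exact p = 0.0234, adjusted 0.0571). By implied fragments, 3A was above 3D 1.37-fold (adjusted exact p = 0.0216) and above 3B 1.38-fold (0.0287), while the ratio of 3B to 3D was 0.992. These tests were added after the values were seen.

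**Figure D4:**
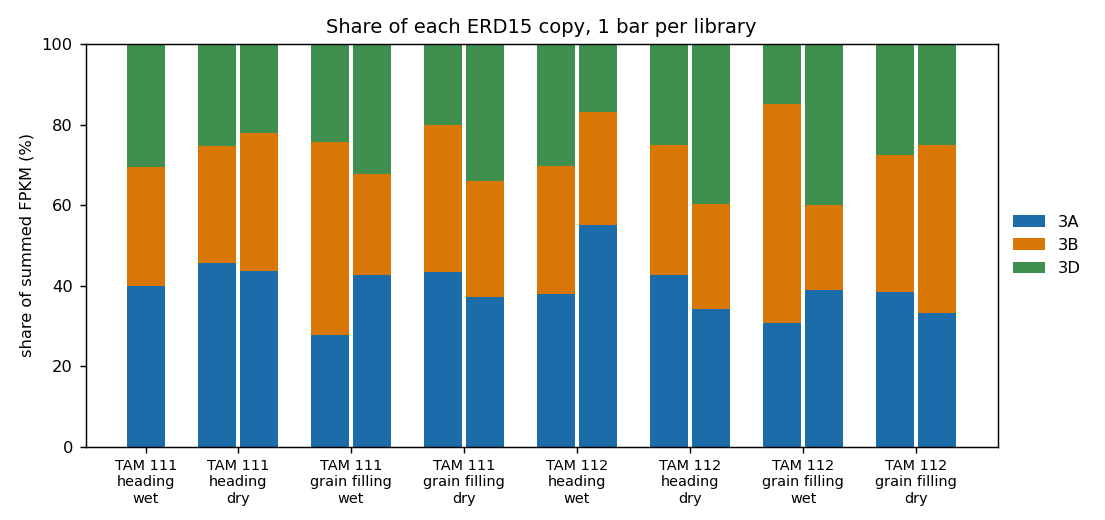
Share of each ERD15 copy in the summed FPKM of the 3 copies, in percent, with 1 bar per library grouped by cultivar, stage and treatment. The 3A share runs from 27.7% to 55.1%. In the 3B and 3D shares, replicate bars of TAM112 at grain filling under wet differ as much as bars of different groups.

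The share of a copy is its FPKM over the sum of the 3. Averaged over libraries the shares were 39.4% ± 6.70 for 3A, 33.3% ± 8.89 for 3B and 27.2% ± 7.44 for 3D (SD, n = 15). The 3A share ranged from 27.7% in replicate 1 of TAM111 at grain filling under wet to 55.1% in replicate 2 of TAM112 at heading under wet. The 3B share ranged from 21.0% to 54.5%, and both of these were TAM112 at grain filling under wet. The 3D share ranged from 14.8% to 40.1%, again with both ends in that group. For 3B and 3D the spread between the replicates of that group was thus as wide as the spread over the whole study. For 3A the widest replicate pair, TAM112 at heading under wet, had 37.9% and 55.1%. Other pairs were closer, such as 25.1% and 27.7% for 3D in TAM112 at grain filling under dry. Few implied fragments stood behind some of these shares. In replicate 1 of TAM112 at grain filling under wet the 3D copy had 17.0% of the fragments with a 95% exact binomial interval of 4.95% to 38.8%, and in replicate 2 48.5% with 31.5% to 63.9%. These intervals cover counting error only and depend on the fragments implied by the deposited bounds, rounded to whole numbers.

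No copy gained or lost share with treatment, stage or cultivar beyond the replicate error. The exact permutation test exchanged libraries within the 4 combinations of the other factors (648 arrangements, two-sided, smallest possible p = 0.00154) and was run 9 times. The dry–wet difference was 0.70 percentage points for 3A (permutation p = 0.843), −0.59 for 3B (p = 0.906) and −0.11 for 3D (p = 0.983). The TAM112 minus TAM111 difference was −1.12 points for 3A, 0.99 for 3B and 0.14 for 3D, with permutation p between 0.752 and 0.981. The largest differences were between stages. The 3A share was 5.85 points lower at grain filling (36.5% against 42.7%, permutation p = 0.142), in 4 of 4 combinations of cultivar and treatment, and the 3B share was 6.19 points higher (36.2% against 30.1%, p = 0.309), also in 4 of 4. Over the 9 tests every adjusted p was 0.983. Without both TAM111 libraries that stand apart the stage differences were −3.73 points for 3A and 2.66 for 3B.

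The sum of the 3 copies varied less between replicates than every single copy in 3 of the 7 groups with 2 libraries: TAM111 at heading under dry, TAM111 at grain filling under wet, and TAM112 at heading under dry. The summed FPKM was 22.9 and 23.4 in TAM111 at grain filling under wet, 50.6 and 52.1 at heading under dry, and 85.1 and 93.7 at grain filling under dry. In TAM112 it was 106 and 110 at heading under dry and 126 and 145 at grain filling under dry. In the dry groups at grain filling the sum varied more (1.10-fold in TAM111 and 1.15-fold in TAM112) than the 3A copy (1.06-fold and 1.01-fold). The wet groups of TAM112 varied most, with sums of 15.6 and 32.5 at grain filling and 30.8 and 94.6 at heading. In TAM111 at grain filling under wet the sums differed by 1.02-fold, while the 3A copy differed by 1.57-fold and the 3B copy, in the other direction, by 1.88-fold. Replicate 1 of this group is among the libraries that stand apart. The 3B value of replicate 2 came from a long assembled entry.

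A further locus annotated as ERD15, XLOC_007027 (TraesCS1B01G136700), lies on part 1 of chromosome 1B from 174642890 to 174644841 on the minus strand. Its mean at grain filling under wet was 9.23 FPKM in TAM111 and 8.76 in TAM112, near the copies (6.55 to 8.72). Under dry it was 5.29 and 10.99 FPKM, below the copies (24.4 to 51.5). The 1B locus spans 1952 bases with 4 catalogue transcripts of 363 to 1000 bases. Its values in all 15 libraries came from assembled entries, with between 3.01 and 27.2 implied fragments. In TAM111 it had 18.2 FPKM in the wet library at heading and 4.79 and 2.74 in the dry libraries, a log2 fold change of −2.05 (SE 0.60, adjusted p = 0.298). At grain filling in TAM111 it had 3.47 and 7.12 under dry and 9.54 and 8.91 under wet (log2 fold change −0.76, adjusted p = 0.514). In TAM112 dry and wet libraries overlapped at both stages, with 6.81 and 15.2 against 10.7 and 6.86 FPKM at grain filling (log2 fold change 0.23, adjusted p = 0.874). It was called in no dry–wet comparison, and a difference between this locus and the copies on 3A, 3B and 3D was not tested.

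The study's water-deprivation list holds 89 loci besides the 3 copies, the 1B locus among them, and 83 were tested. It was chosen by the study on these libraries. At grain filling 25 of the 83 were called higher and 13 lower under dry in TAM111, against 1.71% and 1.07% of all loci, the median log2 fold change being 1.28 against 0.10 over all loci. In TAM112 36 were called higher and 13 lower, against 4.04% and 1.8% of all loci, with a median of 2.04 against 0.08. At heading in TAM111 limma called 0 higher (14 at an unadjusted p below 0.05) and 5 lower, against 0.0551% and 0.415% of all loci. At heading in TAM112 it called 5 higher and 0 lower (10 at an unadjusted p below 0.05), against 0.305% and 0.14% of all loci. Of the 83 loci 9 were listed at 0 in every wet library, so that they could pass the filter on low values through dry libraries alone. They include 1 of the higher calls in TAM111 and 5 of those in TAM112 at grain filling. Listed loci with wet values above 0 but below 1 FPKM could pass in the same way. Such loci were not counted, so these numbers are lower bounds. Dehydrins, hydrophilic proteins that protect membranes and proteins in drying cells, were called higher for 8 of 11 tested loci in TAM111 and 9 of 11 in TAM112 at grain filling, and late embryogenesis abundant proteins for 4 and 7 of 12. Aquaporins, which conduct water across membranes, were called lower for 2 and 1 of 6. Of the 83 loci, 30 had a larger dry–wet change than the 3A copy in TAM111 and 30 in TAM112, and the listed loci called higher had median log2 fold changes of 3.02 and 3.03.

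**Figure D5:**
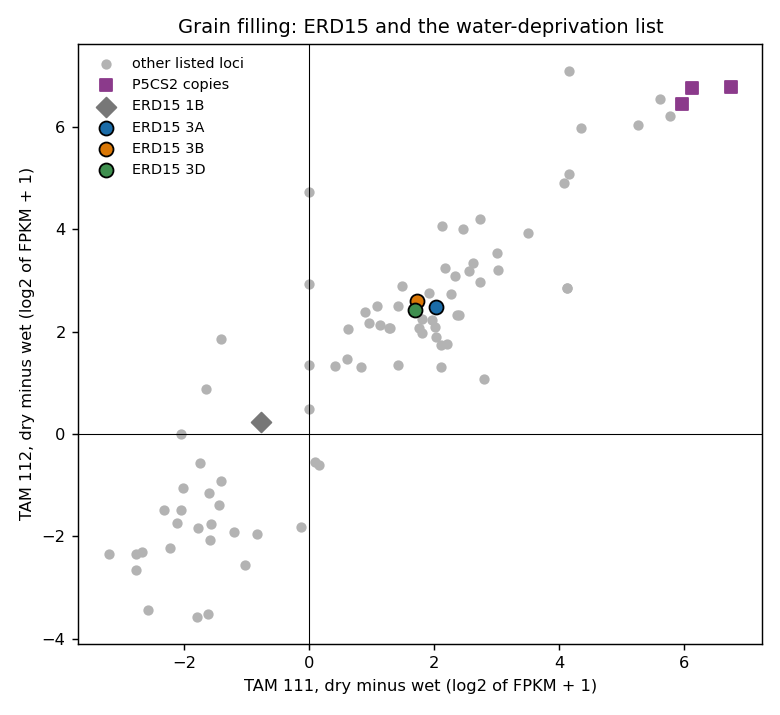
Dry minus wet log2 fold change of FPKM + 1 at grain filling in TAM111 (x axis) and TAM112 (y axis) for the tested loci of the water-deprivation list, with the ERD15 copies, the ERD15 locus on 1B and the P5CS2 copies marked. The ERD15 copies lie between 1.698 and 2.04 on the x axis and between 2.42 and 2.59 on the y axis, while the P5CS2 copies lie above 5.97 and 6.45.

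Another triad of the list gives a measure of scale. Delta-1-pyrroline-5-carboxylate synthase 2 (P5CS2) catalyses the first step of proline synthesis from glutamate. Its 3A copy (XLOC_038670) had 174 and 149 FPKM under dry at grain filling in TAM111 and 0.761 and 2.78 under wet, and in TAM112 it had 274 and 211 under dry and 0.847 and 3.15 under wet. The log2 fold changes were 5.97 and 6.45 (SE 0.54 each, adjusted p = 0.000974 and 0.000664). The 3B copy (XLOC_044951) changed by 6.13 and 6.77 and the 3D copy (XLOC_049806) by 6.76 and 6.79, all called. Under wet at grain filling the ERD15 copies were between 2.31 and 13.02 FPKM, whereas those of P5CS2 were between 0.761 and 4.62 FPKM.

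Loci of ABA synthesis and signalling were read because ERD15 acts in that pathway in Arabidopsis. The enzyme 9-cis-epoxycarotenoid dioxygenase makes the committed ABA precursor. Its 5A locus (XLOC_071369) was below 1 FPKM under wet except for 1.32 FPKM in replicate 1 of TAM112 at heading. Its 5D locus (XLOC_084623) was below 1 FPKM under wet except for 1.75 FPKM in TAM111 at heading. These loci passed the filter only with their dry libraries, so that no fold or test is given. At grain filling the 5A locus had 5.16 and 6.54 FPKM under dry and 0.739 and 0.644 under wet in TAM111. In TAM112 it had 5.86 and 5.09 under dry and 0.587 and 0.442 under wet. The 5D locus had 3.96 and 7.06 FPKM under dry and 0.438 and 0.670 under wet in TAM111. In TAM112 the 5D locus had 8.96 and 2.33 under dry and 0.502 and 0.615 under wet. Protein phosphatase 2C 37 is of a family that restrains ABA signalling. Its 2D locus (XLOC_030704) was between 0 and 0.868 FPKM in every wet library. It passed the filter through its dry libraries alone, so that no fold or test is given. Under dry at grain filling the 2D locus had 10.3 and 12.6 FPKM in TAM111 and 22.3 and 17.4 FPKM in TAM112. The locus on 2A (XLOC_015328) was listed at 0 FPKM in every wet library of both stages, and passed the filter through its dry libraries, so that no fold or test is given. In the dry libraries it had 4.81 and 4.93 FPKM in TAM111 and 5.57 and 11.4 FPKM in TAM112 at grain filling, and between 0.668 and 1.13 FPKM at heading.

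Across the 15 libraries the copies followed each other, as a description of values that share libraries and depth. Pearson's r of log2(FPKM + 1) was 0.91 between 3A and 3D, 0.88 between 3A and 3B, and 0.83 between 3B and 3D. Among 13324 loci with a reference gene and a mean of at least 5 FPKM, the 3A copy ranked 3rd in likeness to the 3D copy, and the 3D copy ranked 24th in likeness to 3A. The 3B copy ranked 74th for 3A and 43rd for 3D. The loci most like 3A other than the copies were XLOC_037042 on 3A (r = 0.95, between 2.25 and 791 FPKM), XLOC_050217 on 3D (r = 0.95) and XLOC_076479 on 5B (r = 0.95). Those most like 3B were XLOC_034096 on 2D, XLOC_079434 on 5B (both r = 0.94) and XLOC_087704 on 6A (r = 0.93), and those most like 3D were XLOC_013575 on 1D (r = 0.94), XLOC_083882 on 5D (r = 0.92) and XLOC_047224 on 3B (r = 0.90). None of these 9 is in the water-deprivation list. Within that list the P5CS2 copy on 3A was among the 3 loci most like each copy (r = 0.91 for 3A, 0.88 for 3B and 0.79 for 3D). It came first for none. The listed locus most like 3A and that most like 3D were late embryogenesis abundant proteins (r = 0.94 and 0.88). That most like 3B was a dehydrin (r = 0.89).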

How the data were processed

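The authors trimmed reads (Trimmomatic 0.38 and bcl2fastq 1.7 per the submitters' processing notes), aligned them to IWGSC RefSeq v1.0 with TopHat2 and deposited Cufflinks FPKM values with confidence bounds for each of the 15 libraries, before any scaling across libraries by Cuffdiff. The deposited merged catalogue supplied the locus numbers. Versions of TopHat2 and Cufflinks are not given in the sources used here.

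Entries were assigned to catalogue loci by reference name and otherwise by overlap (bedtools 2.31.1), without strand. FPKM off the catalogue was between 0.932% and 26.1% of a library. Of the loci above the filter, 2363 that shared an entry with another locus were left out. Fragments behind a value were implied from its bounds as the square of FPKM over its standard error, taken from the upper bound. Depth was estimated from reference genes with a single transcript of at least 1500 bases and 4 to 50 implied fragments, of which 65.2% to 68.2% came within 0.05 of a whole number.

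Loci with at least 1 FPKM in at least 2 libraries (47205) were fitted with limma 3.58.1 in R 4.3.3 on log2(FPKM + 1) with a mean-variance trend, 8 group means and 7 residual degrees of freedom. P-values were adjusted by Benjamini and Hochberg over all loci of a contrast. Calls needed an adjusted p below 0.05 and a change of at least 2-fold, and interactions the adjusted p alone. Shares and ratios of copies were tested by exact permutation (Python 3.11.15). Both tests were tested on simulated data. The same wet or dry libraries enter several contrasts. Alternatives were a pseudocount of 0.1, no filter, 2 scalings, each contrast's own libraries, a replicate block, single entries and each library left out.

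Named loci are the 3 copies, the 1B ERD15 locus, the 3 loci most like each copy, and from the study's list the P5CS2, 9-cis-epoxycarotenoid dioxygenase and protein phosphatase 2C 37 loci. The members and lists were chosen with earlier results of these data known. Of 110788 reference gene names, 0 matched the RefSeq gene table at hand, so no sequence is shown.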

Additional observations from a re-analysis of the deposited data

Results flagged for a closer look

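The change from heading to grain filling went in opposite directions under dry and wet, in every library compared, for 5 pairs of copy and cultivar. The stage interaction, the dry–wet change at grain filling minus that at heading, was 1.98 for the 3A copy, 1.73 for 3B and 2.14 for 3D in TAM111, and 1.76 for 3A and 1.69 for 3B in TAM112, on the log2 scale. The limma test of each difference did not pass after adjustment over all loci (adjusted p between 0.352 and 0.781), and 7.22% of all loci in TAM111 and 3.08% in TAM112 had the same pattern of libraries.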

How the results depend on the processing

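Groups of 1 or 2 libraries limit these results. Of 1132 values of single copies under alternatives, 1076 kept direction and call. The 3A call in TAM111 was the weakest, kept in 8 of 24 alternatives, against 21 of 24 for 3A and 18 of 24 for 3B in TAM112. Causes were not tested unless named.

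At grain filling, 0 copies were called in TAM111 with a pseudocount of 0.1 (3A adjusted p = 0.0505), with no filter (0.0606), with median-ratio scaling (0.0521), with each contrast's own libraries (0.127) and without both TAM111 libraries that stand apart (0.271), in place of 1, and between 0 and 2 with 1 library left out. In TAM112 it was 0 with own libraries only, in place of 2, a fit with 2 residual degrees of freedom that called 0 of all loci in both cultivars, and between 0 and 2 with 1 library left out. The median-ratio and quantile scalings moved the median of all loci at grain filling from 0.10 in TAM111 and 0.08 in TAM112 to 0, and the 3A change to 1.87 and 1.82 in TAM111 and to 2.32 and 2.25 in TAM112. The share of calls that were higher went from 61.5% to 51.3% and 49.6% in TAM111 and from 69.2% to 59.7% and 54.0% in TAM112. Over all loci, 1311 calls in TAM111 became 691 without both libraries, and 650 of 19324 loci on reference gene entries, while implied fragments, chosen after seeing the data, gave 2070. The 2754 calls in TAM112 became 1205 of the 19324 loci on reference gene entries. Fragments gave 4117 there and called the 3D copy as well (adjusted p = 0.0442). Fragments were tested on 44658 loci and the main fit on 47205, so counts from sets of different size do not compare directly.

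Replicate numbers did not pair the libraries: over 21 pairs of groups the correlation of deviations ran from −0.04 to 0.09. With the replicate block, 0 copies were called at grain filling in TAM111 (3A adjusted p = 0.0623), the 3B difference at heading in TAM111 was 0.18, and it changed no other call.

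Signs changed for small differences. Dry minus wet in TAM111 at heading became −0.10 for 3A by fragments and 0.0913 for 3B without both libraries. Grain filling minus heading for 3D in TAM112 under dry became −0.0076 and −0.0378 with the 2 scalings. The cultivar difference under wet became −0.0141 (pseudocount) and −0.0943 (fragments) for 3B at heading. At grain filling it became 0.60 (reference gene entries) and 0.0033 (fragments) for 3A, 0.33 (without both libraries) for 3B and 0.0064 (fragments) for 3D. The cultivar interaction at grain filling became −0.19 for 3A on reference gene entries. With 1 library left out, ranges that crossed 0 were −0.0977 to 0.0913 (3B, dry minus wet, TAM111 heading), −2.13 to 0.13 and −0.29 to 0.41 (3D, grain filling minus heading, TAM112 wet and dry), −0.35 to 0.68, −0.84 to 0.85 and −1.52 to 0.74 (3A, 3B and 3D, cultivars, heading wet), −0.64 to 0.60, −0.48 to 0.33 and −1.18 to 0.91 (grain filling wet), −0.19 to 1.05 and −0.31 to 1.77 (3A and 3D, change between cultivars, grain filling) and −0.073 to 2.18 (3D, change between stages, TAM112).

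Shares had no adjusted p below 0.417 in any alternative. Without both libraries the treatment difference became −1.42 points for 3A and 2.94 for 3B, and the 3D differences 1.07 (stage) and −0.45 (cultivar). Reference gene entries on all 3 copies were found in 7 libraries, which left 3 libraries of 1 combination for stage and 5 of 2 combinations for treatment and for cultivar, with arms of 1 library. The values there, 1.08 (treatment), −1.52 (stage) and −1.51 (cultivar) for 3B and 4.91 (stage) for 3D, rest on too few libraries to bear on stability. By fragments the differences became −1.92 for 3A and 1.93 for 3B (treatment), and 0.59 (stage) and −0.63 (cultivar) for 3D. Without TAM111 at heading they became −0.66 for 3A and 2.15 for 3D (treatment) and −0.68 for 3D (cultivar). With 1 library left out, treatment ran from −1.45 to 2.85, −4.78 to 3.61 and −3.27 to 3.05 (3A, 3B, 3D), cultivar from −3.69 to 1.03, −3.21 to 5.19 and −3.02 to 3.29, and stage for 3D from −3.50 to 2.82. Log2 ratios of copies by fragments were 0.47 for 3A to 3B, now past the threshold, and −0.0119 for 3B to 3D. On reference gene entries 3A to 3D was 0.49, no longer past it.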
